A study of Caenorhabditis elegans with 55 samples.

Results

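csr-1 (WBGene00017641) was followed as a target of small RNAs and as an mRNA. It was identified by its WormBase identifier in every table that lists it. It accounts for 2 of the 70241 small RNA features, 1 antisense and 1 sense, and both were listed in 10 of 10 small RNA tables. Both mRNA tables list it, among 19390 genes that they share. The csr-1 gene encodes CSR-1, a Caenorhabditis elegans Argonaute that is essential for fertility. Argonautes hold a small RNA and use it to find complementary transcripts. CSR-1 binds small RNAs that RNA-dependent RNA polymerases copy from germline mRNAs, so these small RNAs are antisense to the mRNAs that CSR-1 finds. The gene makes a longer isoform, CSR-1a, and a shorter one, CSR-1b, which differ at the N terminus. The series asked which small RNAs each isoform and several other Argonautes carry, and how mRNA differs in a csr-1 mutant. Because csr-1 is itself a germline mRNA, the same tables show how much small RNA is made against it and which Argonautes hold that RNA.

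All animals were whole worms collected at the L4 larval stage. The small RNA libraries came from worms grown at 20 C, with 2 immunoprecipitates (IP) of an Argonaute and 2 inputs, the total small RNA of the lysate, per strain. JMC101, csr-1(tor67[gfp::3xflag::csr-1]), tags CSR-1 as a whole. JMC151 carries csr-1(tor160) with the gfp::3xflag tag in exon 1, at chromosome IV position 7957568 per the labels, and its IP is labelled CSR-1a. JMC164 carries csr-1(tor67) with the tag in exon 2, at position 7958598 of the same chromosome, together with csr-1(mg660[G120*]), a stop codon in place of glycine 120, and its IP is labelled CSR-1b. JMC161 carries mgTi11[rpl-28::csr-1a exon1::gfp], a transgene driven by the promoter of the ribosomal protein gene rpl-28, with unc-119(ed3) and csr-1(tm892), and its IP is called CSR-1 in the titles and CSR-1a in its table. GR3039 carries csr-1(mg657[G91R]), which changes glycine 91 to arginine. GR3035, whose csr-1 the labels leave unchanged, carries mgIs75[rpn-2::gfp] and mgTi14[pbs-5::mcherry]. The IPs of GR3035 and GR3039 are labelled CSR-1a. Their genotypes put no GFP on an Argonaute although the IPs are labelled as made with GFP beads, and an anti-CSR-1a antibody appears in the protocol too. The same holds for JMC248, wago-10(tor162[3xflag::wago-10]), which has FLAG alone. JMC205, alg-3(tor141), JMC207, alg-4(tor143), and JMC223, wago-4(tor117), each carry gfp::3xflag on the named Argonaute and an unchanged csr-1. mRNA was sequenced in 3 libraries each of JMC164 and of N2, the Bristol wild type, from worms kept at 25 C or at 20 C. The titles of the mutant mRNA libraries name csr-1a(tor159), while their genotype names the tor67 and mg660 alleles. The positions are those of the labels, whose genome build is not given.

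The labels do not say that replicates came from separate cultures, so the p-values measure the spread between these libraries, which may be technical. Estimated small RNA depth was 325376 to 30284492 reads, so that 1 read was worth 0.033 to 3.07 RPM (reads per 1000000). mRNA libraries held 7457580 to 18775147 counts. Library 3 of JMC164 at 20 C stood apart: replicate correlations in its group were as low as 0.908, against at least 0.971 in every other group. Its summed germline, sperm and oocyte markers were the lowest of all 12 libraries. The csr-1 mRNA contrasts and the list counts between strains are therefore also given without that library. Library 3 of N2 at 20 C differed from its group too. Its summed germline markers were 940 CPM, against 251 and 291 CPM in libraries 1 and 2. Its summed oocyte markers were 416 CPM, against 122 and 130 CPM. Both groups at 20 C were thus uneven in germline markers.

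Antisense reads made up nearly all of the small RNA on csr-1. Their share of the csr-1 reads was 87.8% to 99.9% in the 20 IP libraries and 83.5% to 98.9% in the 20 inputs. The antisense level was 79.4 to 2898 RPM in the IPs and 60.9 to 218 RPM in the inputs, and it rested on 26 to 42420 reads per library. The lowest read number was that of input 2 of JMC223.

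The IPs fell into a high and a low range. In 4 strains the antisense level of csr-1 was at least 1261 RPM in both IPs, and these were JMC161, JMC101, JMC164 and the WAGO-4 strain JMC223. In the other 6 strains the highest IP value was 330 RPM. The tests below are limma's on log2(RPM + 1), adjusted by Benjamini-Hochberg over all features tested in the strain, and a feature counted as enriched at an adjusted p under 0.05 with a log2 difference of at least 1.

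**Figure D1:**
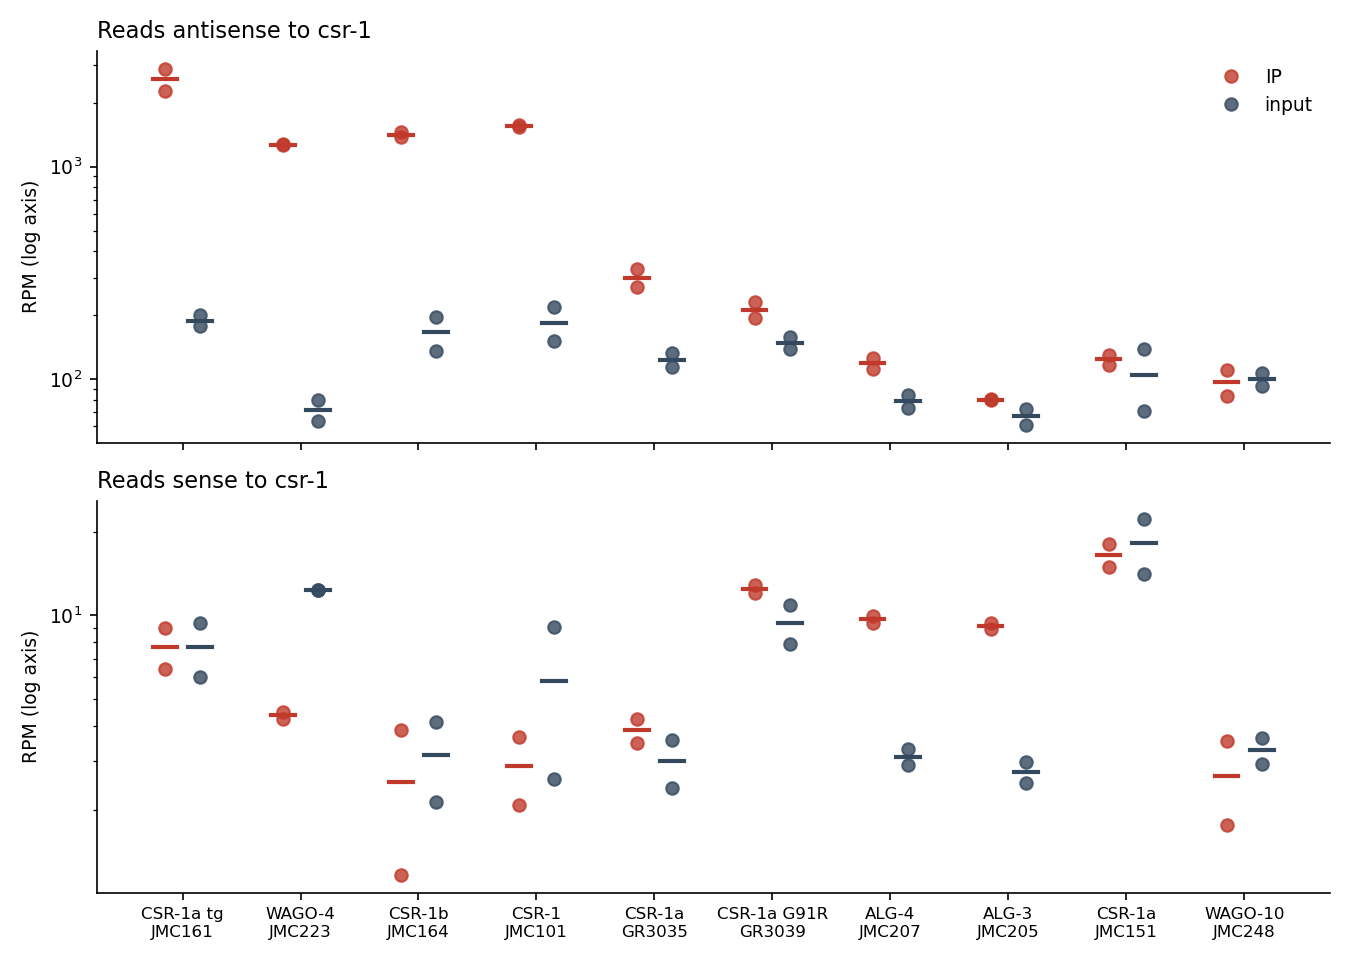
Antisense (upper) and sense (lower) reads of csr-1 in RPM, on log axes, in the 2 IP libraries (left, red) and 2 input libraries (right, dark) of each strain; bars are means. Antisense IP levels reached 1261 to 2898 RPM in JMC161, JMC223, JMC164 and JMC101, and 79.4 to 330 RPM in the other strains.

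With the tag on CSR-1 as a whole, the JMC101 IPs held 1569 and 1530 RPM antisense to csr-1, against 151 and 218 RPM in the inputs. Both IPs lay far above both inputs. The log2 difference was 3.09 (SE 0.23, limma adjusted p 6.51e-05). Enrichment was common in this IP, with 54.5% of the antisense coding features tested enriched, and csr-1 ranked at percentile 87.4 of their log2 differences. As a share of antisense coding reads, which sets aside how much of each library is antisense, csr-1 was 2.95 times as high in the IPs as in the inputs.

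With the tag in exon 2 and the G120* change, the JMC164 IPs held 1454 and 1375 RPM, against 136 and 197 RPM in the inputs. Again the IPs and inputs did not overlap. This gave a log2 difference of 3.10 (SE 0.27, limma adjusted p 4.01e-05), with 50.7% of antisense coding features enriched and csr-1 at percentile 93.2. The difference in enrichment between JMC164 and JMC101 was 0.02 (SE 0.34, limma adjusted p 1.0). Only 0.0176% of antisense coding features differed between these 2 IPs at an adjusted p under 0.05.

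With the tag in exon 1, the JMC151 IPs held 130 and 117 RPM, against 138 and 70.8 RPM in the inputs. The IPs lay between the inputs, and the log2 difference was 0.32 (SE 0.59, limma adjusted p 0.687). In that IP 42.5% of antisense coding features were enriched, and csr-1 stood at percentile 31.8, below their median of 1.03. As a share of antisense coding reads csr-1 was 0.849 times as high in the IPs as in the inputs. These libraries were shallow, with 180 and 106 antisense reads of csr-1 in the inputs, and the sign of the difference depended on the scaling. It was -0.31 with TMM factors and -0.23 when scaled to antisense coding reads.

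The direct comparison of the isoform IPs gave a log2 difference in enrichment of -2.79 for JMC151 relative to JMC164 (SE 0.59, limma adjusted p 0.00903). A difference was called for 33.9% of the antisense coding features in this comparison. With no filter on low values its adjusted p was 0.0535. JMC161, labelled with a csr-1a transgene and with an IP called CSR-1 in its titles, did not share the low value of JMC151. Its IPs held 2280 and 2898 RPM, against 177 and 199 RPM in the inputs, and these IP levels of csr-1 antisense reads are the highest of any library. The log2 difference was 3.77 (SE 0.17, limma adjusted p 1.34e-06), with 56% of antisense coding features enriched and csr-1 at percentile 95.2. The enrichment in JMC161 exceeded that in JMC151 by 3.45 (SE 0.53, limma adjusted p 0.00225), in a comparison where 41.1% of antisense coding features differed.

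In GR3035, whose csr-1 gene is unchanged and whose IP is labelled CSR-1a, the IPs held 271 and 330 RPM, against 114 and 132 RPM in the inputs. Both IPs were higher than both inputs. This gave a log2 difference of 1.28 (SE 0.17, limma adjusted p 0.000853), with 33.2% of antisense coding features enriched and csr-1 at percentile 74.7. It stood at 0.99 with TMM factors and 0.90 when scaled to antisense coding reads, both with an adjusted p under 0.05 and under the fold required. In GR3039, with the G91R change, the IPs held 230 and 193 RPM, against 158 and 138 RPM in the inputs. The groups did not overlap, but the log2 difference of 0.51 (SE 0.20, limma adjusted p 0.0671) did not pass, and 16.7% of antisense coding features were enriched there. The log2 difference in enrichment between GR3039 and GR3035 was -0.77 (SE 0.26), which did not pass either (limma adjusted p 0.107). In that comparison 1.74% of antisense coding features differed.

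Among the other Argonautes, WAGO-4, which acts in the germline with small RNAs antisense to mRNAs, was also in the high range. Its IPs in JMC223 had 1261 and 1274 RPM, against 63.5 and 79.9 RPM in the inputs. On the log2 scale the difference was 4.13 (SE 0.15, limma adjusted p 6.7e-05). Enrichment was the rule in this IP, at 68.2% of antisense coding features, and csr-1 stood at percentile 76.0. The WAGO-4 enrichment was higher than that of JMC164 by 1.03 (SE 0.30, limma adjusted p 0.0434), where 29.6% of antisense coding features differed. That call was lost when scaled to antisense coding reads, at 0.68 with a limma adjusted p of 0.158. It was also lost with the replicate number as a block (limma adjusted p 0.0501), with no filter on low values and with a pseudocount of 0.1 RPM. The same happened in 6 of the 8 fits that left out 1 library. The lowest value among those fits was 0.77 and the highest adjusted p 0.15.

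ALG-3 and ALG-4 are Argonautes that act in sperm development. The ALG-4 IPs held 126 and 112 RPM antisense to csr-1, against 84.2 and 73.4 RPM in the inputs. The log2 difference was 0.58 (SE 0.19, limma adjusted p 0.027) and below the fold required, while 33.1% of antisense coding features were enriched. It was 1.08 with TMM factors, past the threshold, and -0.11 when scaled to antisense coding reads. The ALG-3 IPs held 79.4 and 80.4 RPM, against 72.6 and 60.9 RPM in the inputs, a log2 difference of 0.26 (SE 0.09, limma adjusted p 0.0296) where 28.9% of antisense coding features were enriched. The difference between ALG-3 and ALG-4 in csr-1 enrichment was -0.32 (SE 0.20, limma adjusted p 0.661), and 0.0287% of antisense coding features differed between these IPs. The WAGO-10 IPs held 110 and 83.7 RPM, against 106 and 93.1 RPM in the inputs, with overlapping groups. That log2 difference was -0.05 (SE 0.22, limma adjusted p 0.876), and 10.4% of antisense coding features were enriched.

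**Figure D2:**
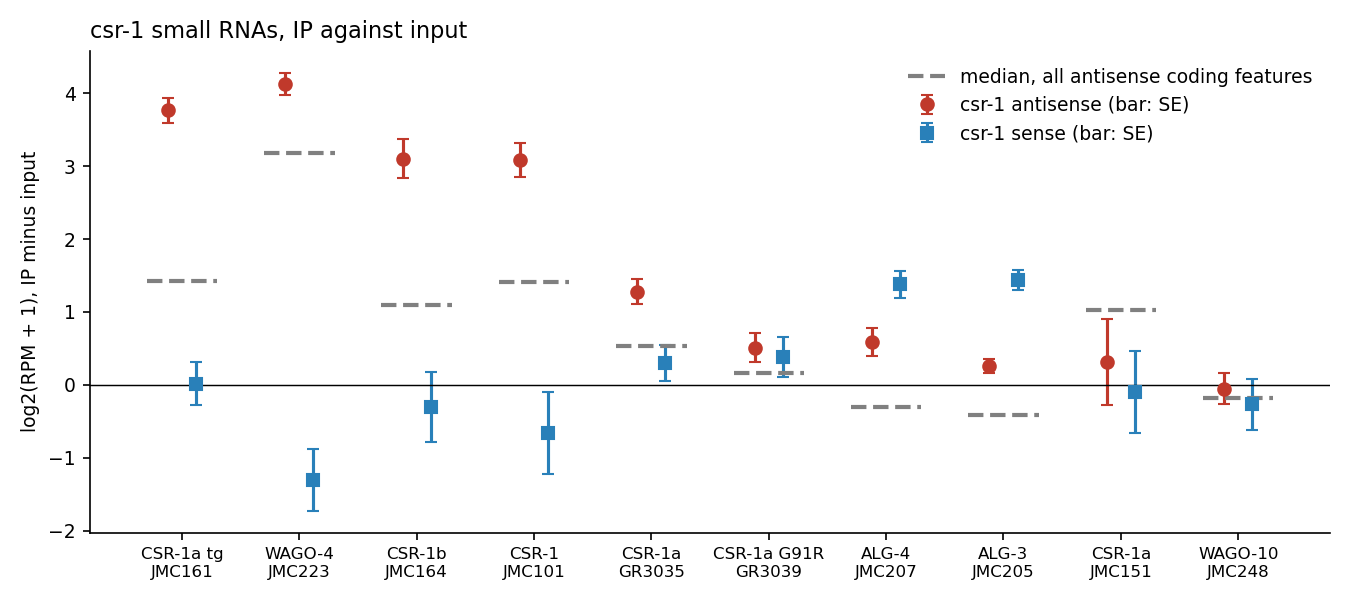
Log2 difference between IP and input, on log2(RPM + 1), for csr-1 antisense reads (circles) and sense reads (squares) in each strain, with the SE as bars; dashed grey lines mark the median of all antisense coding features in that IP. Antisense csr-1 lies above the median in 9 strains and below it in JMC151, at 0.32 against a median of 1.03, while sense csr-1 is highest with ALG-3 and ALG-4.

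Sense reads of csr-1 followed another pattern. They were few, 4 to 243 reads per library, at 1.17 to 18.1 RPM in the IPs and 2.13 to 22.3 RPM in the inputs. The ALG-3 IPs held 9.42 and 8.91 RPM of sense reads, against 2.98 and 2.51 RPM in the inputs. On the log2 scale the difference was 1.44 (SE 0.14, limma adjusted p 1.67e-05), in an IP where 36.3% of sense coding features passed in either direction. The ALG-4 IPs held 9.98 and 9.41 RPM, against 3.31 and 2.91 RPM, a log2 difference of 1.38 (SE 0.19, limma adjusted p 0.000414) with 44.5% of sense coding features past the threshold. In both strains the IPs lay above the inputs. With a pseudocount of 5 RPM both differences were under 1, at 0.87 and 0.86, and that of ALG-4 was 0.80 when scaled to antisense coding reads. The WAGO-4 IPs held 4.50 and 4.26 RPM of sense reads, against 12.3 and 12.3 RPM in the inputs. That difference of -1.31 (SE 0.42, limma adjusted p 0.0383) rested on 31 and 4 input reads, with 42.2% of sense coding features past the threshold. With every feature kept its limma adjusted p was 0.119, with the replicate number as a block 0.0914, and without either WAGO-4 IP it was 0.259 or 0.275. In the other 7 strains sense csr-1 was not called. The share of sense coding features past the threshold there was 32.8% in JMC101, 19.6% in JMC151, 17.1% in JMC164, 19.4% in JMC248, 12.6% in GR3035, 20.8% in JMC161 and 8.46% in GR3039. Sense csr-1 had log2 differences of -0.66 to 0.39 and limma adjusted p of 0.321 to 0.961. Scaled to antisense coding reads, sense csr-1 was at -1.81 in JMC101, -1.26 in JMC164 and -1.13 in JMC161, with limma adjusted p of 0.0349, 0.0443 and 0.0151 in that order.

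The inputs allow the total level of csr-1 small RNA to be compared between strains. In the 5 strains whose csr-1 locus or csr-1 copy is changed by a tag, a mutation or a transgene, the mean input level was 158 ± 34.1 RPM. In the 5 strains in which the labels leave csr-1 unchanged it was 88.0 ± 23.3 RPM (SD, n = 5 strains each). From high to low, the changed strains were JMC161 at 188, JMC101 at 185, JMC164 at 166, GR3039 at 148 and JMC151 at 105 RPM. The unchanged strains were GR3035 at 123, JMC248 at 99.8, JMC207 at 78.8, JMC223 at 71.7 and JMC205 at 66.7 RPM. The groups overlapped, since JMC151 lay below GR3035. The difference in log2 level was 0.83 (two-sided exact permutation test over strains, p 0.0238, where the smallest possible is 0.00794). Scaled to antisense coding reads it was 0.64 (exact permutation p 0.0159). The same test gave a p under 0.05 with a higher level for 12.2% of 8917 antisense coding features. Over all of these the adjusted p of csr-1 was 0.325, and no feature passed (1175 at an unadjusted p under 0.05, exact permutation test). The median difference of all these features was 0.41, with csr-1 at percentile 87.65. The strains also differ in tag, background and depth, which cannot be told apart from the state of csr-1 here. Between the inputs of GR3039 and GR3035 alone, the log2 difference was 0.18 (SE 0.11, limma adjusted p 0.32), with 10.3% of antisense coding features called. Scaled to antisense coding reads it was 0.46 (limma adjusted p 0.0218).

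The tables also list GFP, so the tag inside csr-1 can be read beside the gene. This reading of small RNAs was chosen after its values were seen, and no test was made. In JMC101 the IPs held 439 and 438 RPM antisense to GFP, against 72.5 and 77.2 RPM in the inputs. The JMC164 IPs held 440 and 351 RPM, against 79.1 and 70.6 RPM in the inputs. The IP mean was thus 5.86 times the input mean in JMC101 and 5.29 times in JMC164, where csr-1 itself was 8.40 and 8.50 times as high. In JMC151 the direction was the opposite, with 97.6 and 62.1 RPM antisense to GFP in the IPs and 200.4 and 111 RPM in the inputs. The WAGO-4 IPs of JMC223, where GFP sits on wago-4, held 407 and 458 RPM against 75.4 and 55.3 RPM. The ALG-4 IPs of JMC207 held 211 and 216 RPM antisense to GFP, against 34.2 and 29.0 RPM in the inputs, while csr-1 was 1.51 times as high in those IPs as in the inputs. The ALG-3 IPs of JMC205 held 47.6 and 51.5 RPM, against 26.1 and 26.8 RPM. GR3035, with gfp on rpn-2, held 4138 and 6598 RPM in the IPs and 5894 and 6056 RPM in the inputs. JMC248, whose label has no gfp, held 2.89 and 4.87 RPM in the IPs and 0.382 and 1.08 RPM in the inputs. In JMC161, whose label includes gfp, the IPs held 3 and 5 reads antisense to GFP and the inputs 8 and 0. GR3039, whose label has none, had 0 and 0 reads in the IPs and 1 and 1 in the inputs. The GFP reads of JMC161 were thus far fewer than in the other strains labelled with gfp, and which construct its csr-1 reads come from was not tested.

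A list of 22 other Argonautes had 19 members that matched the tables, and they did not move together. In JMC164 12 of 19 tested were enriched and in JMC101 12 of 18. JMC161 had 14 of 19 and WAGO-4 had 9 of 14, and csr-1 was enriched in all 4. The corresponding shares over all antisense coding features are the 50.7%, 54.5%, 56% and 68.2% given above. Median log2 differences of the list were 2.08 in JMC164, 2.53 in JMC101, 2.25 in JMC161 and 3.32 with WAGO-4, against medians of 1.09, 1.42, 1.42 and 3.19 over all antisense coding features.

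Among the Argonautes tested in all 10 IPs wago-1 was closest to csr-1 over the IPs by correlation. This gene, which encodes a germline WAGO Argonaute, measured 3.04 in JMC164, 3.11 in JMC101, 3.42 in JMC161 and 4.38 with WAGO-4, and 0.24 in JMC151. wago-4, ppw-1, ppw-2, alg-5, ergo-1, prg-1, which encodes a PIWI protein, and hrde-1, the nuclear germline Argonaute, were also enriched in these 4 IPs and did not pass in JMC151. In the JMC151 IP 7 of 16 Argonautes were enriched, a share near the 42.5% of all antisense coding features, and csr-1 did not pass. The 7 included wago-10 at 3.82, the microRNA Argonaute gene alg-1 at 3.56, sago-1 and alg-4 at 2.66 each and alg-3 at 2.25. The count for JMC151 was 1 without its IP 1, 2 without its IP 2 and 0 of 19 by limma without the filter on low values, where 5608 of 15904 antisense coding features had an unadjusted p under 0.05 and 0 passed adjustment. ALG-3 and ALG-4 each enriched 4 of 16 and depleted 8 of 16 Argonautes. Over all antisense coding features 28.9% were enriched and 3032 of 9795 depleted with ALG-3, and 33.1% were enriched and 3202 of 9542 depleted with ALG-4. alg-4 at 4.58 and wago-10 at 4.00 were enriched with ALG-3, alg-3 at 4.60 and wago-10 at 4.27 with ALG-4. csr-1 was in neither class there, whereas the ALG-3 IP had wago-4 at -1.13 and ppw-2 at -1.26, and the ALG-4 IP had them at -1.52 and -1.67. In GR3035, where csr-1 was enriched at 1.28, 8 of 19 Argonautes were, against 33.2% of all antisense coding features, led by wago-10 at 4.09 and alg-1 at 3.10. In GR3039 5 of 18 were enriched, against 16.7% of all, and with WAGO-10 3 of 17, against 10.4% of all, and csr-1 did not pass in either.

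The 5 matched genes of the CSR-1 pathway list act in making or using these small RNAs. They are ego-1, an RNA-dependent RNA polymerase, drh-3, a Dicer-related helicase, ekl-1, a Tudor domain protein, elli-1, and prmt-5, an arginine methyltransferase. All 5 were enriched in JMC164, JMC101, JMC161 and the WAGO-4 IP, and none in GR3035, where csr-1 also passed. The medians were 3.04 in JMC164, 3.18 in JMC101, 3.46 in JMC161 and 4.69 with WAGO-4. ego-1 measured 3.27, 3.30, 3.57 and 4.69 in that order, and ekl-1 2.50, 2.71, 2.90 and 4.98. In the other 6 IPs 0 of 5 were enriched by limma, with 0 to 4 at an unadjusted p under 0.05 in either direction. ego-1 was depleted with ALG-3 at -1.42 and with ALG-4 at -1.56. Together with the Mutator, ERI and P granule lists, JMC164 enriched 31 of 33 pathway genes tested, JMC101 30 of 33, JMC161 31 of 33 and the WAGO-4 IP 30 of 32. Over all antisense coding features the shares were 50.7%, 54.5%, 56% and 68.2% in that order. Such counts were not particular to pathway genes. Germline markers such as glp-1 were enriched 12 of 12 in each of these IPs, and oocyte markers 8 of 8. Sperm markers had 7 of 15, 8 of 15, 9 of 15 and 0 of 4 in that order. In JMC151 1 of 11 germline markers, 1 of 5 oocyte markers and 13 of 14 sperm markers were enriched. Of the pathway genes JMC151 enriched 3 of 29, against 42.5% of all, and 5 in a fit with the replicate number as a block. GR3035 enriched 6 of 33, against 33.2% of all. The ALG-3 IP had 5 of 32, as did the ALG-4 IP, against 28.9% and 33.1% of all. The WAGO-10 IP had 0 of 31, against 10.4% of all, and GR3039 0 of 33, against 16.7%, by limma, with 5 and 9 at an unadjusted p under 0.05.

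**Figure D3:**
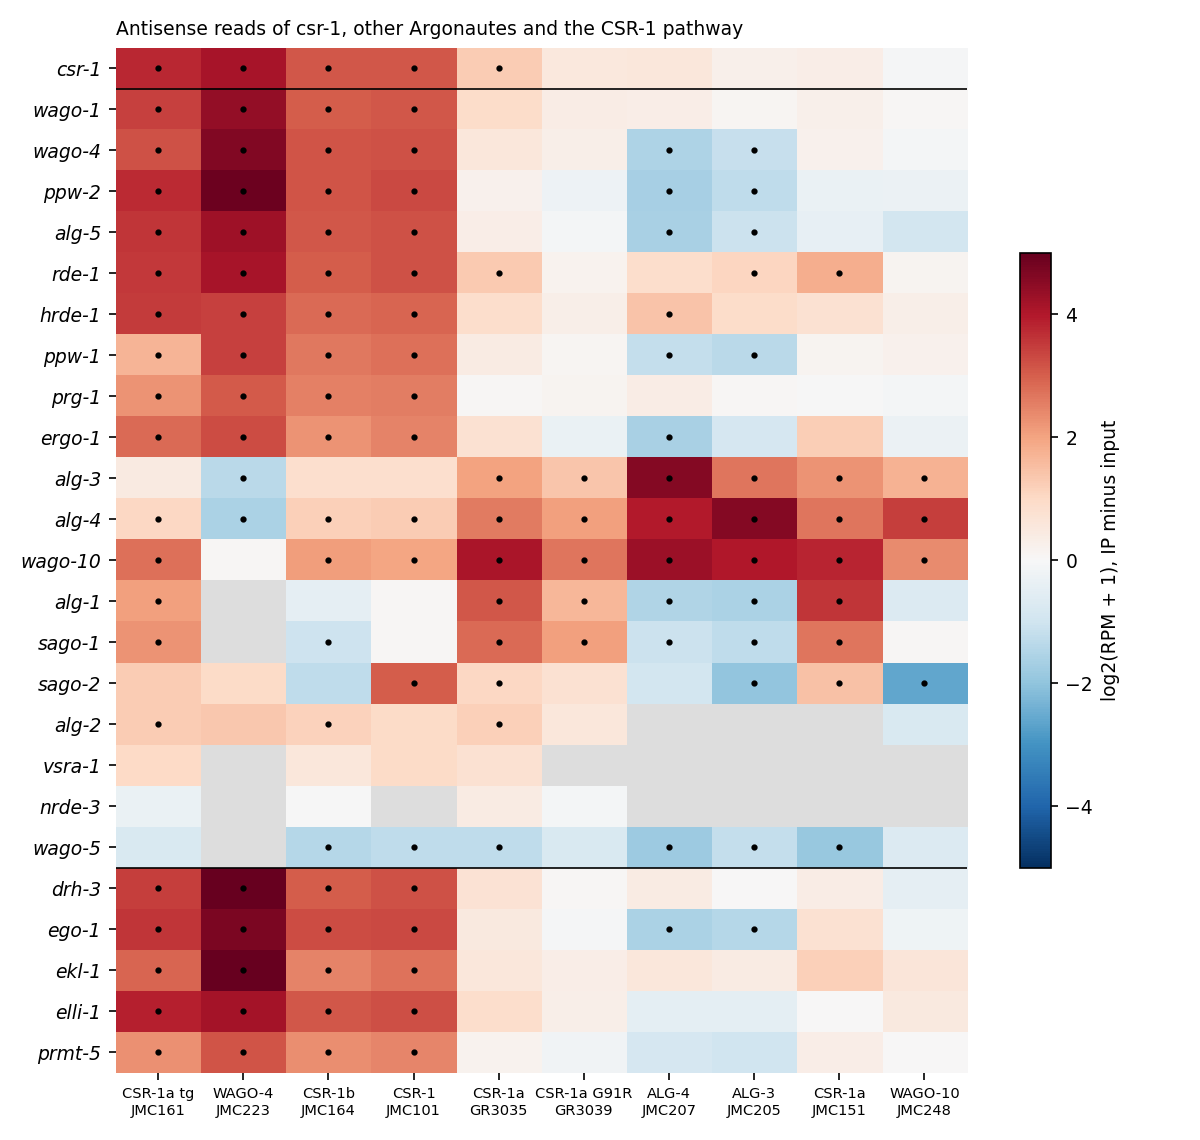
Log2 difference between IP and input, on log2(RPM + 1), of antisense reads for csr-1 (top row), 19 other Argonautes and 5 CSR-1 pathway genes in the 10 IPs; dots mark features past the threshold in either direction and grey marks features not tested. csr-1 is dark red in the first 4 columns, like wago-1 and drh-3, whereas alg-1 and sago-1 are high in JMC151, at 3.56 and 2.66, where csr-1 is 0.32.

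Across the 10 IPs the features closest to csr-1 were ranked by the correlation of their log2 differences with those of csr-1, over 5246 antisense coding features tested in all strains. dpy-30, which encodes a subunit of histone methyltransferase complexes, was first with a Pearson r of 0.997. rab-5, which encodes an endosomal GTPase, also had 0.997, and tomm-70, which encodes a mitochondrial import receptor, 0.995. thoc-5, which encodes a subunit of the THO complex, had 0.995 and T02E1.2 0.994. wago-1 was at rank 7. The median over all these features was 0.81, and each point comes from the same libraries and scaling as csr-1, so the values describe likeness only.

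**Figure D4:**
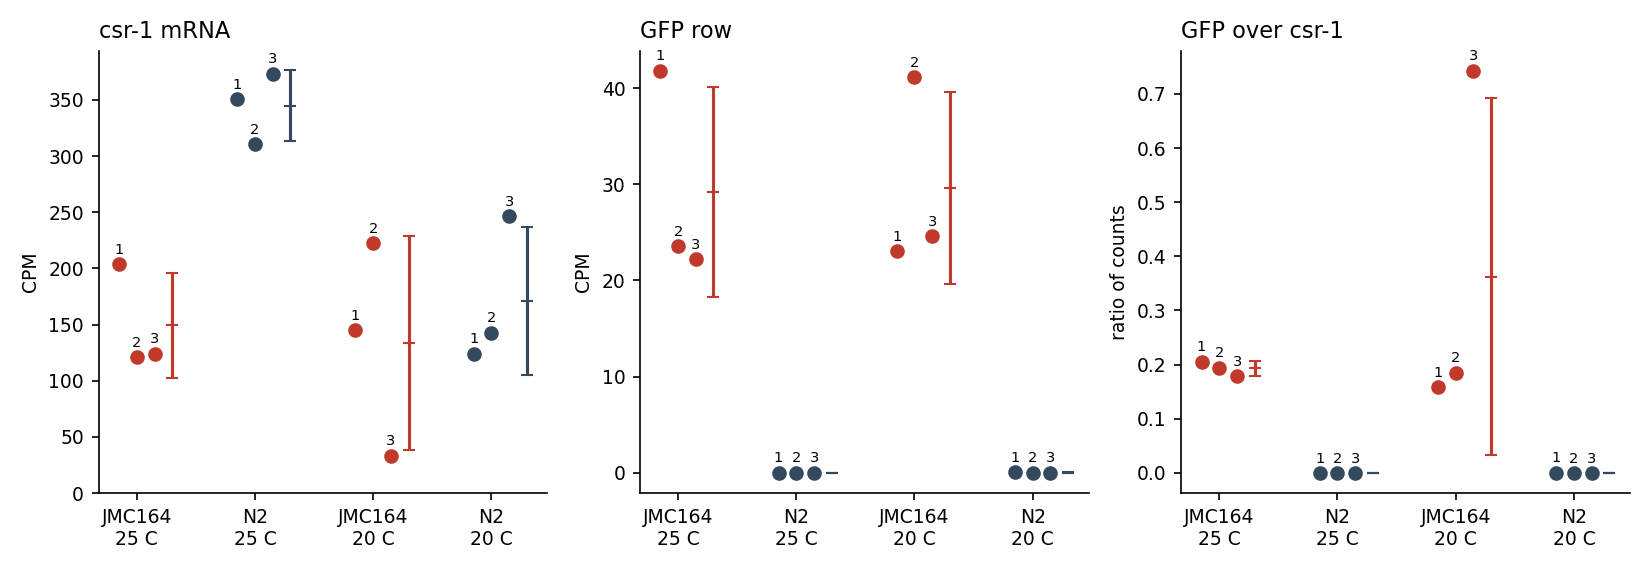
csr-1 mRNA in CPM (counts per 1000000), the GFP row in CPM and the ratio of GFP to csr-1 counts in each mRNA library, JMC164 (red) left of N2 (dark) at each temperature; points carry the replicate number, and bars give mean and SD (n = 3). csr-1 was 121 to 204 CPM in JMC164 and 311 to 373 CPM in N2 at 25 C, and the GFP to csr-1 ratio of library 3 of JMC164 at 20 C, 0.742, stands above 0.159 to 0.205 in the other 5 JMC164 libraries.

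csr-1 mRNA at 25 C was 204, 121 and 124 CPM in JMC164, against 351, 311 and 373 CPM in N2. All 3 mutant libraries were lower than all 3 of N2. The means were 149.5 ± 46.8 CPM in JMC164 and 345 ± 31.7 CPM in N2 (SD, n = 3 each). The log2 difference was -1.19 (SE 0.45), which did not pass in edgeR's quasi-likelihood test with Benjamini-Hochberg adjustment (adjusted p 0.0657). In this contrast 28.6% of 14800 genes were called, and csr-1 lay at percentile 4.66 of all log2 differences. The call depended on the fit. DESeq2 gave -1.26 with an adjusted p of 0.0306. Without library 3 of JMC164 at 20 C, which enters the shared estimate of the spread, edgeR gave -1.21 with an adjusted p of 0.00126, and without library 2 of that group -1.19 with 0.0338. Over all single libraries left out, edgeR's adjusted p ran up to 0.188, without library 2 of JMC164 at 25 C.

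At 20 C csr-1 was 145, 223 and 33.1 CPM in JMC164, against 124, 143 and 247 CPM in N2. The groups overlapped, with library 3 of JMC164 far below the rest. The means were 134 ± 95.2 CPM in JMC164 and 171 ± 66.1 CPM in N2 (SD, n = 3 each). On the log2 scale the difference was -0.36 (SE 0.45, edgeR adjusted p 0.667), where 7.11% of genes were called. It was 0.12 without library 3 of JMC164 (edgeR adjusted p 0.744). The counting error of that library is small beside this gap, since its 299 counts give an exact Clopper-Pearson 95% interval of 29.5 to 37.1 CPM.

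Between temperatures, all 3 N2 libraries at 25 C lay above all 3 at 20 C in csr-1, but the log2 difference of 0.79 did not pass (SE 0.45, edgeR adjusted p 0.149). In this contrast 58.7% of genes were called, and csr-1 lay at percentile 76.1. In JMC164 the log2 difference was -0.04 (SE 0.45, edgeR adjusted p 0.948), with 51.2% of genes called. The difference between these changes was -0.83 (SE 0.63, edgeR adjusted p 0.332), with 22.8% of genes called. Without library 3 of JMC164 at 20 C the values were 0.79 in N2 (edgeR adjusted p 0.00952), -0.54 in JMC164 (0.0851) and -1.33 for the difference between them (0.00632). Over all single libraries left out, that difference ran from -1.33 to -0.25, with an edgeR adjusted p of up to 0.784. The csr-1 contrasts with temperature and with strain at both temperatures share groups, and are not independent of each other. Of 6 hypodermis (skin) markers, 2 rose and 4 fell at 25 C in N2. From 20 C to 25 C, N2 means went from 153 to 2510 CPM for col-19 and from 313 to 19.1 CPM for bli-1. In JMC164 they went from 224 to 1658 CPM and from 362 to 14.6 CPM. Whether developmental age differed between the temperatures was not tested. Age and temperature cannot be told apart here, for csr-1 or for the lists below.

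The GFP row gave a further reading of the tagged transcript. JMC164 had 488, 278 and 216 GFP counts at 25 C and 172, 772 and 222 at 20 C. N2 had 1 count in library 1 at 20 C and 0 in the other 5 libraries, which allows up to 0.249 to 0.288 CPM in those (counting error only). The label of the strain and its GFP row thus match. In 5 of the 6 JMC164 libraries the ratio of GFP to csr-1 counts was 0.205, 0.195 and 0.179 at 25 C and 0.159 and 0.185 at 20 C. In library 3 at 20 C it was 0.742 (exact 95% interval 0.621 to 0.886). GFP in that library was 24.6 CPM, within the 22.2 to 41.8 CPM of the other 5, while csr-1 was 33.1 CPM, below their 121 to 223 CPM. The gene named frpr-10 overlaps csr-1 in the name table used, with no strand given, and its reads were at most 1.54 CPM in mRNA and 3.07 RPM antisense.

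The germline markers of the libraries varied alongside csr-1. The summed level of 12 germline markers, such as glp-1 and gld-1, was 1691, 1025 and 1095 CPM in JMC164 and 2996, 1848 and 3272 CPM in N2 at 25 C. At 20 C it was 722, 1063 and 213 CPM in JMC164 and 251, 291 and 940 CPM in N2, and none of the 12 was at 0 in any library. In whole worms fewer germ cells, another developmental age and less csr-1 RNA per cell cannot be told apart. As a percentage of the marker sum, csr-1 at 25 C was 12%, 11.8% and 11.3% in JMC164, against 11.7%, 16.8% and 11.4% in N2, and these ranges overlap. At 20 C it was 20.1%, 20.9% and 15.6% in JMC164, against 49.5%, 49% and 26.2% in N2, without overlap. The sum is mostly cgh-1 and gld-1, at 1166 and 556 CPM of a mean sum of 2705 CPM in N2 at 25 C. Between strains at 25 C the 12 markers ran from -1.40 for gld-1 to 0.17 for syp-2 on the log2 scale, with cgh-1 at -1.34. The percentages thus depend most on cgh-1 and gld-1. These markers were named after their values were seen. The summed oocyte markers were 1680 to 2746 CPM in JMC164 and 3067 to 4790 CPM in N2 at 25 C, and 64.1 to 547 CPM in JMC164 and 122 to 416 CPM in N2 at 20 C. The summed sperm markers were 473 to 631 CPM in JMC164 and 927 to 1003 CPM in N2 at 25 C, and 362 to 1473 CPM in JMC164 and 715 to 825 CPM in N2 at 20 C. The part of the germline in the csr-1 differences was not tested further. Of the germline markers, 12 of 12 rose at 25 C in N2 and 2 of 12 in JMC164, where 58.7% and 51.2% of all genes were called in either direction. For the strain by temperature difference edgeR called 0 of 12, against 22.8% of all genes, with 5 at an unadjusted p under 0.05. The median of that difference was -1.36. The unequal counts in N2 and JMC164 thus do not establish that the strains differ in this response. Between JMC164 and N2 the median log2 difference of the 12 was -0.77 at 25 C and 0.48 at 20 C, against 0.05 over all genes in both contrasts.

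**Figure D5:**
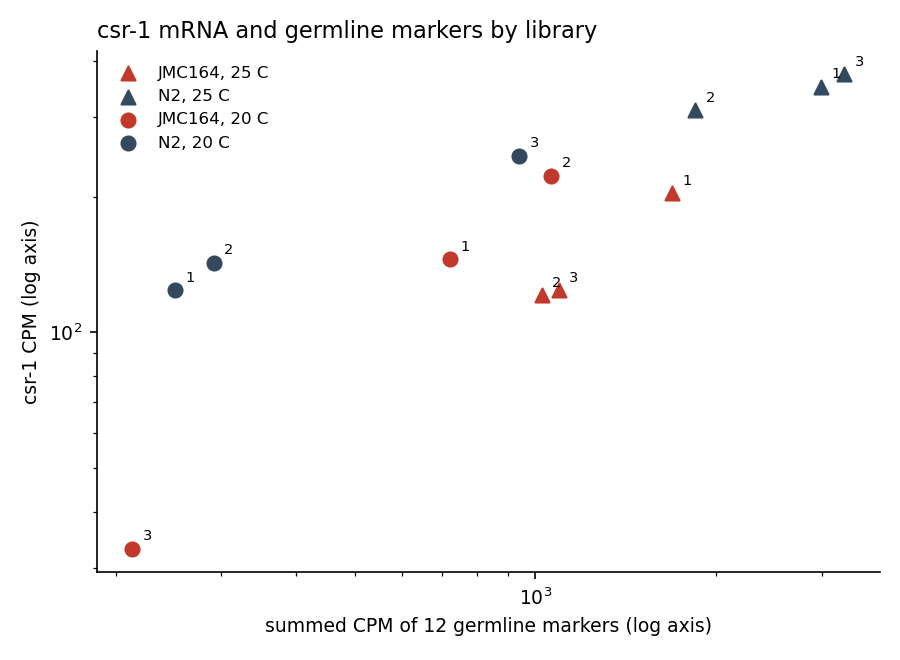
csr-1 CPM against the summed CPM of 12 germline markers in the 12 mRNA libraries, both on log axes; colours give the strain, shapes the temperature and numbers the replicate. Library 3 of JMC164 at 20 C is lowest on both axes, at 33.1 and 213 CPM, and the N2 libraries at 25 C are highest on both.

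Among the other Argonaute mRNAs, 10 of 18 tested rose and 1 fell at 25 C against 20 C in N2, a share near the 58.7% of all genes called there. alg-5 rose by 2.85, hrde-1 by 2.66, wago-4 by 2.46 and wago-1 by 2.31 on the log2 scale, and alg-1 fell by 1.07. In JMC164 4 rose and 3 fell, against 51.2% of all genes called, with rde-1, the primary Argonaute of RNA interference, up by 2.04, alg-5 up by 1.61 and wago-10 down at -1.89. Between JMC164 and N2 at 25 C sago-1 was higher, at 0.36, and ppw-1 and vsra-1 were lower, at -0.92 and -0.59. Of all genes 28.6% were called in that contrast. The median of the list was -0.75 there, against 0.05 over all genes. DESeq2 called 5 Argonautes in that contrast, and edgeR called 10 without library 3 of JMC164 at 20 C, 9 of them lower, with 7543 of 15130 genes called. At 20 C 0 of 18 were called by edgeR, against 7.11% of all genes, with 1 at an unadjusted p under 0.05 and 0 by DESeq2. The edgeR count became 8 without that library, 7 of them higher, with 5883 of 15130 genes called. For the strain by temperature difference edgeR called 0 of 18, against 22.8% of all genes (6 at an unadjusted p under 0.05, 3 by DESeq2). Without that library edgeR called 12, with 8133 of 15130 genes called.

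The 5 CSR-1 pathway mRNAs all rose at 25 C in N2. elli-1 rose by 2.41 and ego-1 by 1.74 on the log2 scale. In JMC164 3 of 5 rose, ego-1 by 2.40, drh-3 by 1.30 and elli-1 by 1.13. Between JMC164 and N2 their median log2 difference was -0.28 at 25 C and 0.16 at 20 C. With the Mutator, ERI and P granule lists, 31 of 33 pathway mRNAs rose at 25 C in N2 and 15 of 33 in JMC164, where 58.7% and 51.2% of all genes were called in either direction. Of the 33, 2 genes, eri-3 at -1.06 and eri-9 at -0.76, were lower in JMC164 than in N2 at 25 C, where 28.6% of all genes were called. DESeq2 called 4 there. Without library 3 of JMC164 at 20 C edgeR called 21, with 7543 genes called in all. At 20 C 0 of 33 differed by edgeR, against 7.11% of all genes, with 2 at an unadjusted p under 0.05 and 0 by DESeq2. Without that library 16 differed, with 5883 genes called in all. For the strain by temperature difference eri-3 at -1.54, glh-1 at -2.29 and meg-4 at -1.50 were called, against 22.8% of all genes, with 9 by DESeq2. Without that library 25 were called, with 8133 genes called in all. The 4 genes eri-3, eri-9, glh-1 and meg-4 were named after their values were seen.

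The mRNAs whose log2 CPM followed csr-1 most closely over the 12 libraries, among 14800 genes, were T22C1.8 with a Pearson r of 0.9605, Y57G11C.5 with 0.953 and M176.9 with 0.95. F54H12.8 had 0.943 and C28D4.7 0.936. The median over all genes was -0.02, and all points share the libraries, their depth and the low library 3 of JMC164 at 20 C.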

How the data were processed

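Small RNAs were measured in 40 libraries of 10 strains and mRNA in 12 libraries. The genes and lists described were chosen with earlier results of these data known. The submitters' processing notes name cutadapt, STAR, FastQC and DESeq2; for their roles, the genome build and the annotation, nothing is stated in the labels used. The deposited small RNA tables hold RPM per feature with 0.01 added, read from the values, which sum to 1000000 per library. The deposited mRNA tables hold counts per gene, per the file values, whole and not normalized. Reads were estimated from the RPM step of 1 read, and 67.1% to 89.9% of low values were whole multiples within 0.02 reads. The no_feature row held 2.6% to 10.8% of small RNA reads and was left out of the tests.

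Small RNA features with at least 10 reads in 2 libraries were tested with limma 3.58.1 on log2(RPM + 1), which understates changes of low features. mRNA was tested with edgeR 4.0.16 (quasi-likelihood, all 12 libraries) on genes passing its filter, with DESeq2 1.42.0 as an alternative, in R 4.3.3. An adjusted p under 0.05 was required, and in IP against input also a log2 difference of 1. Strains' inputs were compared with scipy 1.17.1 by an exact permutation test. Named genes were the listed Argonautes and pathway genes and the 5 closest to csr-1 by correlation, and other names are marked in the text. The limma and edgeR fits were tested on simulated data of a fixed spread, which does not show how they do at the spread of these libraries. Alternatives were the pseudocount, the filter, the scaling, a replicate block, DESeq2 and leaving out each library. Same-numbered libraries deviated together by r of -0.015 to 0.406 in small RNA, over 0.1 in 6 of 10 strains, and -0.405 to 0.323 in mRNA. Per the labels inputs came from the lysates used for the IPs, but they do not state that equal numbers share a lysate, so no block was used and values with it are given where a call changes. 3 input libraries of GR3043 were not analysed here, and no per-sample column was used without a label.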

Additional observations from a re-analysis of the deposited data

Results flagged for a closer look

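The enrichment of csr-1 antisense reads in the IP differed between strains in 3 comparisons, each by a limma interaction test, and no explanation was tested. Relative to JMC164, JMC151 was lower by a log2 difference of -2.79. JMC161, relative to JMC151, was higher by 3.45, where the IP of JMC161 is called CSR-1 in its titles and CSR-1a in its table. JMC223, the WAGO-4 strain, was higher than JMC164 by 1.03, and this call was lost in 6 of 8 fits that left out 1 library. It held in only 2 of 6 other alternatives.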

How the results depend on the processing

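Of the alternatives other than leaving out a library, 371 were classed as the same. For single values this meant the same direction and side of the threshold, and for counts a similar number. Of the others, 27 were moved counts, and 15 weaker, 5 stronger and 10 reversed single values. These others are given here, and the cause was not tested. Scaled to antisense coding reads, csr-1 antisense became -0.23 in JMC151, -0.11 with ALG-4, 0.26 with WAGO-10 and 0.90 in GR3035. Sense csr-1 became -1.81 in JMC101, -1.26 in JMC164, -1.13 in JMC161 and 0.80 with ALG-4. The WAGO-4 excess over JMC164 became 0.68, the ALG-3 difference from ALG-4 0.43 and the GR3039 difference from GR3035 in the inputs 0.46. Enriched antisense features numbered 3544 in JMC101 (5361 as reported), Argonautes 9 in JMC161 and 5 in GR3035, and pathway genes 1 in JMC151, 3 with ALG-4 and 3 in GR3035. With TMM factors csr-1 antisense was -0.31 in JMC151, 1.08 with ALG-4, 0.24 with WAGO-10 and 0.99 in GR3035, sense csr-1 in JMC161 was -0.55 and JMC164 minus JMC101 -0.075. Pathway genes then numbered 1 in JMC151, 8 with ALG-4 and 3 in GR3035. With no filter, limma called 0 features, 0 Argonautes and 0 pathway genes in JMC151 (5608 features at an unadjusted p under 0.05). Without it sense csr-1 with WAGO-4 (-1.31), JMC151 minus JMC164 (-2.79) and JMC223 minus JMC164 (1.03) no longer passed. With a pseudocount of 5 sense csr-1 was 0.87 with ALG-3, 0.86 with ALG-4 and -0.88 with WAGO-4, pathway genes numbered 3 in both the ALG-3 and ALG-4 IPs, and features 507 with WAGO-10 (841 as reported) and 1036 in GR3039 (1566 as reported). With a pseudocount of 0.1 sense csr-1 with WAGO-4 was -1.47 and JMC223 minus JMC164 1.04, neither past the threshold. RLE factors gave 2 Argonautes for the strain by temperature difference. DESeq2 called 1660 genes at 20 C (1052 by edgeR), csr-1 at 25 C at -1.26, 5 Argonautes and 4 pathway genes at 25 C, and 3 and 9 for the strain by temperature difference. Input replicate 2 alone gave 0.84 between changed and unchanged strains (exact permutation p 0.0556).

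Same-numbered IPs and inputs may share a lysate, which the labels do not state. With the replicate block, sense csr-1 with WAGO-4 was -1.31 (limma adjusted p 0.0914), JMC223 minus JMC164 1.03 (limma adjusted p 0.0501) and csr-1 mRNA between temperatures in JMC164 0.015. The block gave 5 pathway genes in JMC151, 1 Argonaute and 1 pathway gene at 25 C, and 1 of each for the strain by temperature difference. The block changed no other call of a single value.

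Leaving out 1 library at a time, csr-1 antisense ranged from -0.16 to 0.79 in JMC151 and -0.25 to 0.15 with WAGO-10. Sense csr-1 ranged from -1.41 to 0.085 in JMC101, -0.41 to 0.22 in JMC151, -0.66 to 0.28 in JMC164, -0.62 to 0.088 with WAGO-10, -1.34 to -1.27 with WAGO-4 and -0.27 to 0.30 in JMC161. In JMC164 only 2 of these fits tested it, since it failed the read filter without IP 1 or input 1. Enriched features ranged from 323 to 3400 in JMC151 and 2999 to 5189 with WAGO-4, Argonautes in JMC151 from 1 to 8, and pathway genes from 0 to 6 in JMC151 and 0 to 1 in GR3039. JMC164 minus JMC101 ranged from -0.25 to 0.28, JMC223 minus JMC164 from 0.77 to 1.29 and the GR3039 inputs minus those of GR3035 from -0.040 to 0.27. For mRNA, csr-1 ranged from -0.94 to 0.12 at 20 C, -1.46 to -1.06 at 25 C, -0.54 to 0.54 between temperatures in JMC164, 0.64 to 1.03 in N2 and -1.33 to -0.25 for the strain by temperature difference. Genes called ranged from 483 to 5883 at 20 C, 2151 to 7543 at 25 C and 1738 to 8133 for the strain by temperature difference. In the same order Argonautes ranged from 0 to 8, 0 to 10 and 0 to 12, and pathway genes from 0 to 16, 1 to 21 and 1 to 25. The highest of these mRNA counts came without library 3 of JMC164 at 20 C. Depth limits sense csr-1, which had 4 to 243 reads per library.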
